A study of Mus musculus with 6 samples.

Results

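The Notch pathway was followed through 10 genes in muscle stem cells (MuSCs) sorted from injured muscle. They were taken by gene name, and all 10 were present among the 49671 genes in the files: the receptors Notch1, Notch2, and Notch3, the ligands Dll1, Jag1, and Jag2, the DNA-binding effector Rbpj, and the target genes Hes1, Hey1, and Heyl. RNA-Seq libraries were made from 3 female C57BL/6 mice treated with resolvin D1 (RvD1) and 3 treated with vehicle, all aged 4 to 6 months. Myofibers of both tibialis anterior (TA) muscles were injured in every mouse by injecting 1.2% BaCl2 (50 μL per muscle), and the 2 muscles of a mouse were pooled at day 3. RvD1 was given daily IP at 100 ng in saline with 0.1% ethanol for 72 hours, and control mice received the ethanol in saline alone. Both groups therefore carried the injury, and uninjured MuSCs were not analysed here. FACS gates kept cells that stained for CXCR4 and β1-integrin and removed those carrying CD45, CD11b, Sca-1, or Ter119. The sample labels also list CD31 among the markers selected against.

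Notch signaling passes between neighboring cells. A ligand of the Delta (Dll) or Jagged (Jag) family on 1 cell binds a Notch receptor on the next, the receptor is cut by ADAM and γ-secretase proteases, and its freed intracellular part joins Rbpj on DNA to switch on repressors of the Hes and Hey families. In skeletal muscle the pathway is known for keeping MuSCs undifferentiated, and its target genes are typically high in quiescent cells and fall as myoblasts commit to differentiation.

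Rbpj binds DNA at sites with the core TGGGAA, and its own promoter entries were searched for these letters. Promoter entries from RefSeq (GRCm38.p6) matched 7 of the 10 genes in 9 windows, each the 250 bases before a transcription start, and no entry matched Hes1, Hey1, or Heyl. TGGGAA, read on either strand, was present in 2 of the 9 windows, both of Rbpj, and in 21.6% of the 32851 windows of all genes. The sites at Rbpj are shown with 12 bases on each side, 5′ to 3′ on the plus strand, with the core in capitals. They lie at chr5:53590185-53590214 and chr5:53590269-53590298, and their cores begin 149 and 65 bases before the first of the 2 starts with an entry. Both windows lie inside the annotated gene, which runs from 53466152 to 53657362 on the plus strand, and not at its annotated 5′ end. The site at 65 is also the one found before the second start, at 205 bases.
Rbpj, first site: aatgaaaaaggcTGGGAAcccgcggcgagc
Rbpj, second site: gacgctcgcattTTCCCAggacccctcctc
For comparison, the 250 bases before the start of Notch3, the receptor whose level differed most between libraries, are given for chr17:32166891-32167140 on the minus strand. They hold no TGGGAA on either strand, so no letters are in capitals.
Notch3, promoter: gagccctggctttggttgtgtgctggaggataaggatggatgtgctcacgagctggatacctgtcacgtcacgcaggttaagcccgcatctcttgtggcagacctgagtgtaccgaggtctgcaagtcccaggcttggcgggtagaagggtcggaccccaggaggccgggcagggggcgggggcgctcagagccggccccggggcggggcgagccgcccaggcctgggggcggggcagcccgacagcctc

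Depth, as total expected counts, was 17962025 to 28149176 for RvD1 mice and 16148026 to 18755643 for vehicle mice, and the 10 genes had between 268 and 8619 expected counts per library. The libraries carried the transcripts of activated, differentiating MuSCs. Pax7, the transcription factor that marks MuSCs, was at 4.03 to 8.50 TPM (a transcript level scaled for transcript length and to the same total in each library), Myod1, a factor of committed myoblasts, was at 239 to 470 TPM, and Myog, a factor of differentiation, was at 818 to 1378 TPM. Of the markers that were sorted against, Ptprc (CD45) was at 0.08 to 1.13 TPM, Itgam (CD11b) at 0.17 to 0.80 TPM, and Pecam1 (CD31) at 0.25 to 3.61 TPM. Ly6a, the gene of Sca-1, was at 17.25 to 39.72 TPM, above Pax7 in every library. In bulk RNA, fewer cells of a type and less RNA per cell cannot be told apart. RvD1 replicate 1 stood apart from the other libraries: 25.2% of the 14494 genes tested in it lay more than 0.5 on the log2 scale from the median of the other 5 libraries, against 10.3% to 14.5% in each of those.

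All 10 genes were expressed in every library, and Heyl was the most abundant, at 81.1 ± 37.4 TPM (SD, n = 6). Dll1 followed at 63.5 ± 8.94 TPM and Rbpj at 50.04 ± 2.81 TPM (SD, n = 6). Heyl was nevertheless above Dll1 in only 2 of the 6 libraries, and their ranges overlapped. Dll1 was above Rbpj in 5 of 6 libraries, and Rbpj was above Hey1 in all 6, with ranges that did not overlap. Hey1 (33.5 ± 4.58 TPM), Hes1 (32.3 ± 10.8 TPM), and Notch3 (31.7 ± 8.18 TPM; SD, n = 6) had overlapping ranges, with Hey1 above Hes1 in 5 of 6 libraries and Hes1 above Notch3 in 3 of 6. Notch1 at 23.6 ± 2.30 TPM was above Notch2 at 17.6 ± 4.21 TPM in all 6 libraries, although their ranges overlapped. The Jagged ligands were lowest, with Jag2 at 11.3 ± 2.74 TPM and Jag1 at 5.70 ± 1.04 TPM (SD, n = 6), and Jag2 was the higher in every library. Dll1 thus made up 74.9% to 82.9% of the summed TPM of the 3 ligands, and Heyl 47.6% to 62.0% of that of the 3 target genes.

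**Figure D1:**
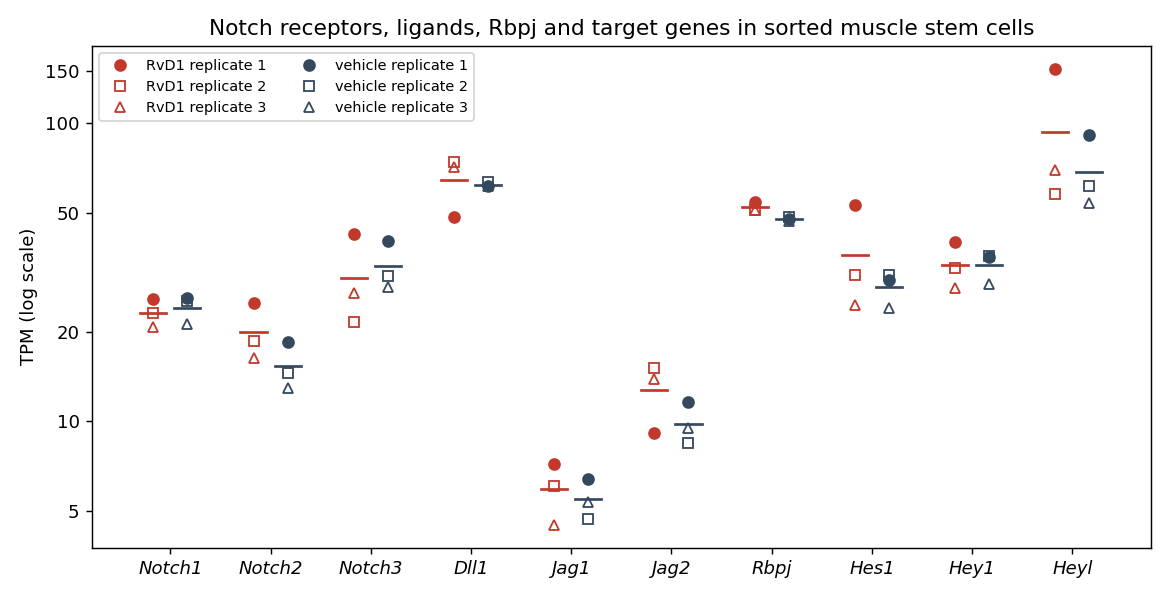
TPM (log axis) of the 10 Notch pathway genes in each library, RvD1 in red and vehicle in dark blue, with replicate 1 as filled circles, replicate 2 as squares, and replicate 3 as triangles. Short lines are group means; RvD1 replicate 1 is the highest library for Heyl (152 TPM) and Hes1 (53.3 TPM) and the lowest for Dll1 (48.6 TPM).

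RvD1 was compared with vehicle to ask whether treatment moved the pathway in these cells. No gene among the 10 passed the test. With edgeR (quasi-likelihood F test, Benjamini-Hochberg), 0 of the 10 had an adjusted p under 0.05 (range 0.971 to 0.999), as did 0 of all 14494 genes tested (0%). An unadjusted p under 0.05 was found for 0 of the 10 and for 503 of all genes (3.47%). The groups did not overlap in normalized counts for 0 of the 10, against 1395 of all genes (9.62%), of which RvD1 was higher in 4.8% and lower in 4.83%. The median log2 fold change (RvD1 minus vehicle) was 0.0063 for the 10 genes and 0.014 for all genes tested.

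The 95% interval of the fold change lay inside a 2-fold change in either direction for 9 of the 10 genes. Rbpj had the narrowest interval, from 0.871-fold to 1.14-fold. Heyl had the widest, from 0.774-fold to 2.13-fold, and was the exception.

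Among the receptors, Notch1 was at 25.7, 23.1, and 20.7 TPM in RvD1 replicates 1, 2, and 3 and at 25.8, 25.3, and 21.1 TPM in vehicle replicates 1, 2, and 3. The groups lay over each other, with a log2 fold change of −0.028 (SE 0.13). Notch2 was at 24.99, 18.53, and 16.29 TPM with RvD1 and at 18.48, 14.55, and 12.97 TPM with vehicle, a log2 fold change of 0.18 (SE 0.15). In TPM, RvD1 replicates 1 and 2 lay above the vehicle range, replicate 2 by a narrow margin. In CPM over library totals, replicate 2, at 89.3, lay below vehicle replicate 1, at 95.6. These CPM are counts scaled to library size, without the TMM scaling used in the test and without a correction for length. On the log2(TPM + 1) scale the log2 fold change was 0.35. Notch3, the receptor that is also prominent in the mural cells of vessels, was at 42.6, 21.5, and 27.0 TPM with RvD1 and at 40.4, 30.6, and 28.3 TPM with vehicle. Replicate 1 was the highest library of each group, and the log2 fold change was 0.023 (SE 0.25).

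Among the ligands, Dll1 was at 48.6, 74.1, and 71.2 TPM in RvD1 replicates 1, 2, and 3 and at 61.6, 63.6, and 61.6 TPM with vehicle. The RvD1 libraries lay on both sides of the tightly grouped vehicle libraries, and the log2 fold change was 0.0026 (SE 0.17). Jag1 was at 7.17, 6.07, and 4.49 TPM with RvD1 and at 6.42, 4.70, and 5.36 TPM with vehicle, with overlapping ranges (log2 fold change 0.010, SE 0.19). Jag2 was at 9.12, 15.1, and 13.9 TPM with RvD1 and at 11.6, 8.43, and 9.47 TPM with vehicle. Its direction depended on the unit and the scaling. In CPM over library totals it was at 17.6, 25.3, and 24.4 with RvD1 and at 23.0, 21.3, and 22.1 with vehicle. From counts its log2 fold change was −0.012 with TMM (SE 0.16) and 0.020 with library totals only. On the log2(TPM + 1) scale it was 0.32. The TPM given per count differed up to 1.51 times between libraries for Jag2 and at most 1.31 times for the other genes; the length that RSEM uses for a gene depends on its estimated mix of isoforms.

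Rbpj varied least. It was at 54.6, 51.2, and 51.1 TPM with RvD1 and at 47.9, 48.5, and 46.9 TPM with vehicle, so that the groups did not overlap in TPM. In CPM over library totals, however, they did, at 140, 136, and 135 with RvD1 and 128, 131, and 142 with vehicle. The log2 fold change of Rbpj from counts was −0.0049 with TMM (SE 0.086) and 0.031 with library totals only. Its SD over the 6 libraries was 0.056 on the log2 scale, and 98.2% of the genes tested had a larger SD.

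Among the target genes, Heyl varied most of the 10 genes, with an SD of 0.51 over the 6 libraries on the log2 CPM scale, while Hes1 (0.37) was close to Notch3 (0.38) and Hey1 (0.20) was below Dll1 (0.25). Heyl, a Hey-family repressor, was at 152, 57.8, and 69.6 TPM in RvD1 replicates 1, 2, and 3 and at 91.1, 61.7, and 53.9 TPM in vehicle replicates 1, 2, and 3. Apart from RvD1 replicate 1, the RvD1 values lay within the vehicle range, and the log2 fold change was 0.36 (SE 0.32). Hes1, a repressor that opposes differentiation in many tissues, was at 53.3, 30.9, and 24.6 TPM with RvD1 and at 29.7, 31.1, and 24.1 TPM with vehicle, again with 1 high RvD1 library (log2 fold change 0.26, SE 0.24). Hey1 was at 40.02, 32.6, and 28.1 TPM with RvD1 and at 35.7, 35.9, and 28.9 TPM with vehicle. Its group means were nearly the same, with a log2 fold change of −0.066 (SE 0.15). Without RvD1 replicate 1 the log2 fold change turned to −0.16 for Heyl (unadjusted p = 0.35 from edgeR), to −0.080 for Hes1, and to −0.33 for Notch3 (unadjusted p = 0.0569 from edgeR), while that of Dll1 moved to 0.20 (unadjusted p = 0.0443, adjusted p = 0.967 from edgeR). Dll1 was then the 1 gene of the 10 with an unadjusted p under 0.05, against 4.33% of all genes in that fit.

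**Figure D2:**
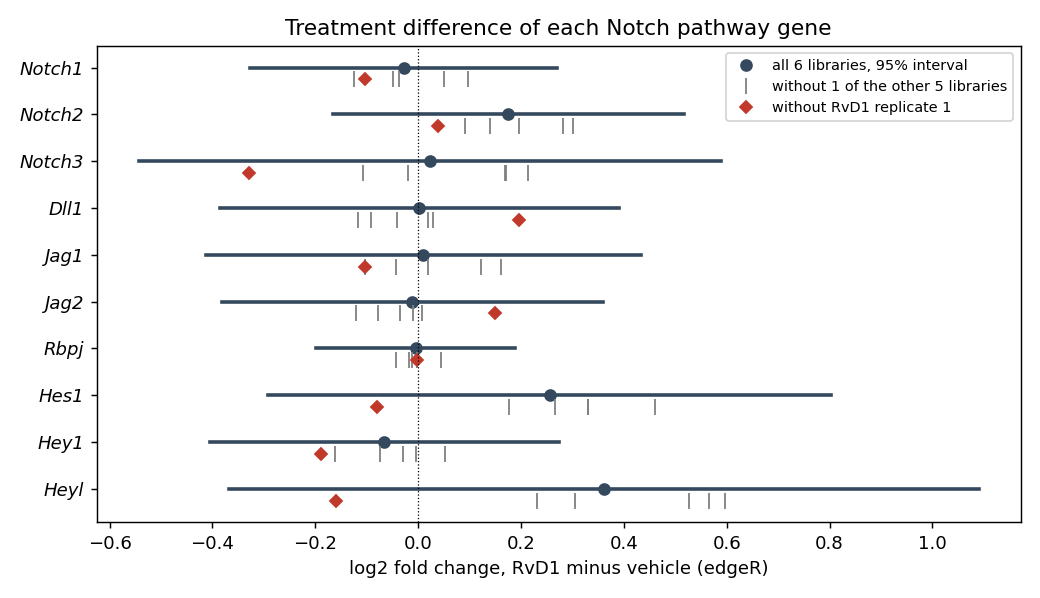
Log2 fold change, RvD1 minus vehicle, of each gene from edgeR (dark blue point) with its 95% interval (line), over all 6 libraries. Grey ticks leave out 1 of the other 5 libraries and red diamonds leave out RvD1 replicate 1, without which Heyl moves from 0.36 to −0.16 and Dll1 from 0.0026 to 0.20; every interval includes 0.

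RvD1 replicate 1 was the extreme library for several of the 10 genes. On log2 CPM it lay 2.23-fold above the median of the other 5 libraries for Heyl, 1.80-fold for Notch3, 1.67-fold for Hes1, and 1.40-fold for Notch2, and at 0.691 of that median for Dll1 and 0.740 for Jag2. Heyl, Hes1, Notch3, and Notch2 were thus high in the library in which Dll1 and Jag2 were low. Hey1, Jag1, and Notch1 were 1.16-, 1.15-, and 1.11-fold above the median there, and Rbpj was at it (1.00-fold). More than 0.5 on the log2 scale from the median were 4 of the 10 genes, against 25.2% of all genes in that library, and 3.94% of all genes lay further up than Heyl and 6.80% further down than Dll1. Vehicle replicate 1 came next, with Notch3 0.62 and Heyl 0.45 above the median on the log2 scale. The ratio of Heyl to Dll1 TPM was highest in the same libraries, at 3.13, 0.781, and 0.977 in RvD1 replicates 1, 2, and 3 and at 1.48, 0.969, and 0.875 in vehicle replicates 1, 2, and 3. No label sets RvD1 replicate 1 apart, and these values describe it without a test.

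Other genes moved with the Notch targets in RvD1 replicate 1. Calcr, the calcitonin receptor of quiescent MuSCs, and the collagen genes Col5a1, Col5a3, Col6a1, and Col6a2, which have been described as Notch targets in MuSCs, were all 5 at their highest in that library. Calcr was at 5.80 TPM there and at 0.82 to 3.02 TPM in the other libraries, and Col6a1 was at 201 TPM against 93.7 to 130 TPM. Of the MuSC markers, Pax7 was at 8.50 TPM against 4.03 to 6.63 TPM and Megf10, a surface receptor of MuSCs, at 54.1 TPM against 21.6 to 30.1 TPM, whereas Myod1 was at its lowest, 239 TPM against 325 to 470 TPM. Of the 10 MuSC markers 5 were highest there, 1 was lowest, and the other 4 lay within the range of the other libraries, among them Myog at 972 TPM. In TPM, RvD1 replicate 1 was the highest library for 7 of the 10 Notch genes and for 36.3% of all genes tested, and the lowest for 1 of the 10 and for 20.4% of all genes. Markers of some other cell types were also high in it. The summed TPM of 9 mural markers was 618 there against 305 to 455 in the other RvD1 and 325 to 418 in the vehicle libraries, that of 6 fibro-adipogenic markers was 568 against 245 to 360 and 275 to 325, and that of 5 Schwann cell markers was 45.1 against 22.6 to 29.3 and 16.4 to 21.8. Single genes made up most of the first 2 sums, Acta2 with 512 TPM and Dcn with 450 TPM. The library was the highest for 7 of 9 mural, 4 of 6 fibro-adipogenic, and 4 of 5 Schwann cell markers, and Ly6a and Pdgfra lay within the range of the other libraries. The leukocyte sum, 66.7, and the endothelial sum, 25.1, lay within the range of the other libraries too. None of these markers was at 0 in every library, and their part in the levels of Notch3, Heyl, and Hes1 was not tested.

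**Figure D3:**
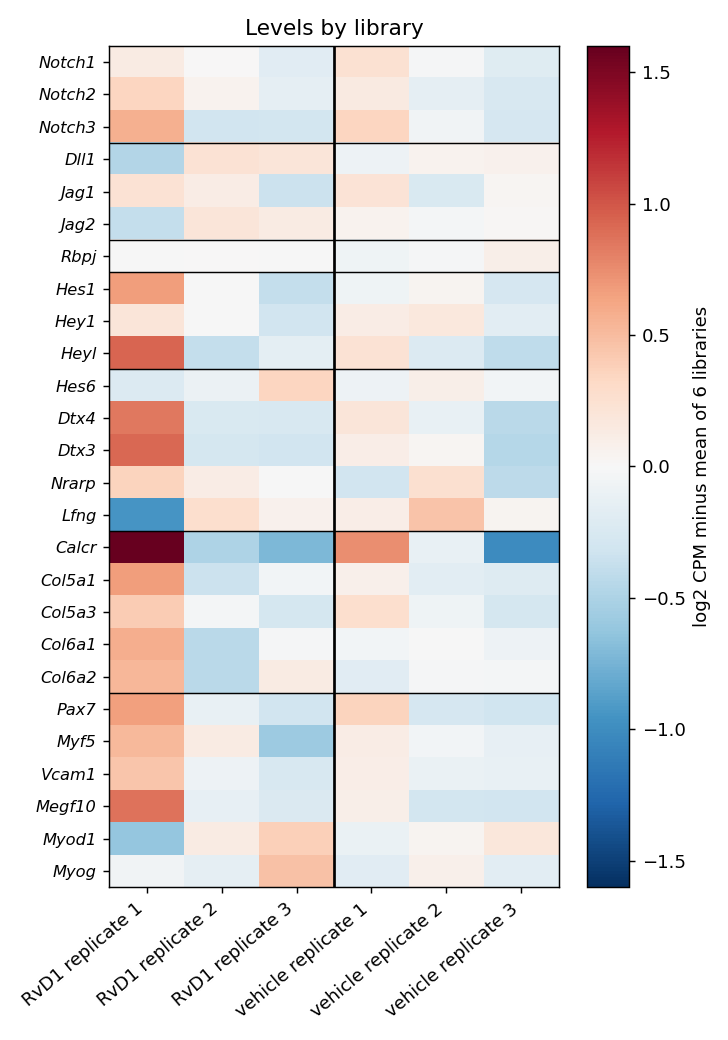
Log2 CPM of each gene minus its mean over the 6 libraries (color scale, red above and blue below the mean), with RvD1 libraries left of the thick line. From top to bottom, thin lines separate receptors, ligands, Rbpj, target genes, other pathway genes, Calcr with the collagens, and MuSC markers; RvD1 replicate 1 is red for Heyl, Hes1, Calcr, and Pax7 and blue for Dll1, Jag2, Lfng, and Myod1.

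Across groups, the marker lists differed in direction. In the edgeR fit the log2 fold change was above 0 for 9 of 9 mural markers (median 0.34) and 5 of 5 Schwann cell markers (median 0.64), and below 0 for 12 of 12 leukocyte markers (median −0.49) and 8 of 10 tested endothelial markers (median −0.97). Of 6 fibro-adipogenic markers 5 were above 0 (median 0.29), and Ly6a was below, at −0.62 with groups that did not overlap. Of 10 MuSC markers 7 were above and 3 below 0 (median 0.080). Of all genes 53.5% were above 0. In edgeR no marker had an adjusted p under 0.05. An unadjusted p under 0.05 was found for 2 mural, 3 leukocyte, 1 fibro-adipogenic, 2 Schwann cell, and 0 endothelial markers, against 3.47% of all genes. The groups did not overlap in normalized counts for 1, 3, 1, 2, and 0 markers of these lists, against 9.62% of all genes. These were not always the same genes. Groups overlapped for Lyz2 (unadjusted p = 0.0095 from edgeR) but not for Adgre1 (unadjusted p = 0.082 from edgeR). The summed TPM of 12 endothelial markers, whose cells use Notch4 and Dll4, was 18.2 to 25.1 with RvD1 and 10.9 to 33.4 with vehicle, and that of 12 leukocyte markers was 46.2 to 66.7 and 59.4 to 100. No endothelial or leukocyte marker was at 0 in every library, and Erg and Sox17 were at 0 TPM in RvD1 replicate 3 and vehicle replicate 2. Their part in the Notch values was not tested.

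The rest of the pathway was read from 57 further genes, of which 52 had enough counts to be tested. With edgeR 0 of the 52 had an adjusted p under 0.05 (smallest 0.971), and 0 had an unadjusted p under 0.05, against 3.47% of all genes. Log2 fold changes were above 0 for 32 and below 0 for 20, with a median of 0.050, where 53.5% of all genes were above 0. After removal of a surrogate variable, limma-voom tested all 57 and gave 4 of them (Dll4, Dlk2, Rfng, and Itch) an unadjusted p under 0.05. That was 7.02%, against 11.2% of all genes and 0 of the 10 members. Dll4 is not among the 52, since its counts were too low for the filter. The groups did not overlap for 3 of the 52 (5.77%, against 9.62% of all genes). These were Rfng, a Fringe glycosyltransferase that tunes which ligands a receptor answers to (log2 fold change 0.19, SE 0.13), Itch, a ubiquitin ligase that acts on Notch (0.13, SE 0.083), and the corepressor Ctbp2 (−0.15, SE 0.091).

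Of 9 protease genes 5 were above and 4 below 0, with a median log2 fold change of 0.00059, and the most abundant was the γ-secretase subunit Ncstn with means of 118 ± 11.9 TPM for RvD1 and 111 ± 10.1 TPM for vehicle (SD, n = 3). Mib1, the ubiquitin ligase that lets ligands be taken up by the signal-sending cell, averaged 27.6 ± 4.71 and 23.97 ± 1.06 TPM (SD, n = 3). Poglut1, which puts O-glucose on the receptor's EGF repeats, was at 42.4 ± 2.99 and 40.6 ± 1.39 TPM (SD, n = 3). For these 3 genes the means differed by less than the wider of the group SDs. The 5 glycosyltransferases had a median log2 fold change of 0.083, with Mfng at 0.50 (SE 0.38), Rfng at 0.19, and Lfng at −0.34 (SE 0.41).

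In the nucleus, the coactivator Snw1 averaged 91.9 ± 1.18 TPM for RvD1 and 85.8 ± 5.02 TPM for vehicle, and the corepressor Ctbp1 219 ± 2.47 and 213 ± 11.1 TPM (SD, n = 3). Of 7 coactivators 4 were above and 3 below 0 (median log2 fold change 0.0046), and of 8 corepressors 2 were above and 6 below 0 (median −0.023). Hes6, a Hes-family member that opposes Hes1 and favors myogenic differentiation, was the most abundant of all Hes and Hey genes, with 191 ± 42.1 TPM for RvD1 and 175 ± 8.83 TPM for vehicle (SD, n = 3).

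Of 8 tested inhibitors and modulators, 7 had a log2 fold change above 0 and 1 below (median 0.10). The most abundant was Dtx4, a Deltex-family ubiquitin ligase, at 96.7, 43.0, and 44.2 TPM in RvD1 replicates 1, 2, and 3 and at 58.8, 44.8, and 36.2 TPM in vehicle replicates 1, 2, and 3. As for Heyl, replicate 1 was the highest library in each group, and the log2 fold change was 0.31 (SE 0.29). Calcr and the 4 collagen genes were 5 of 5 above 0 (median 0.20), where 53.5% of all genes were, with Col6a1 at 0.15 (SE 0.21) and Calcr at 0.51 (SE 0.66). RvD1 replicate 1 was the highest library for all 5. In RvD1 replicates 2 and 3 Calcr was at 1.25 and 1.10 TPM, below the vehicle mean of 1.80 TPM. Both values lay within the vehicle range, 0.82 to 3.02 TPM. Col6a1 was at 93.7 and 129.59 TPM in RvD1 replicates 2 and 3, on both sides of the vehicle mean of 119 TPM.

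**Figure D4:**
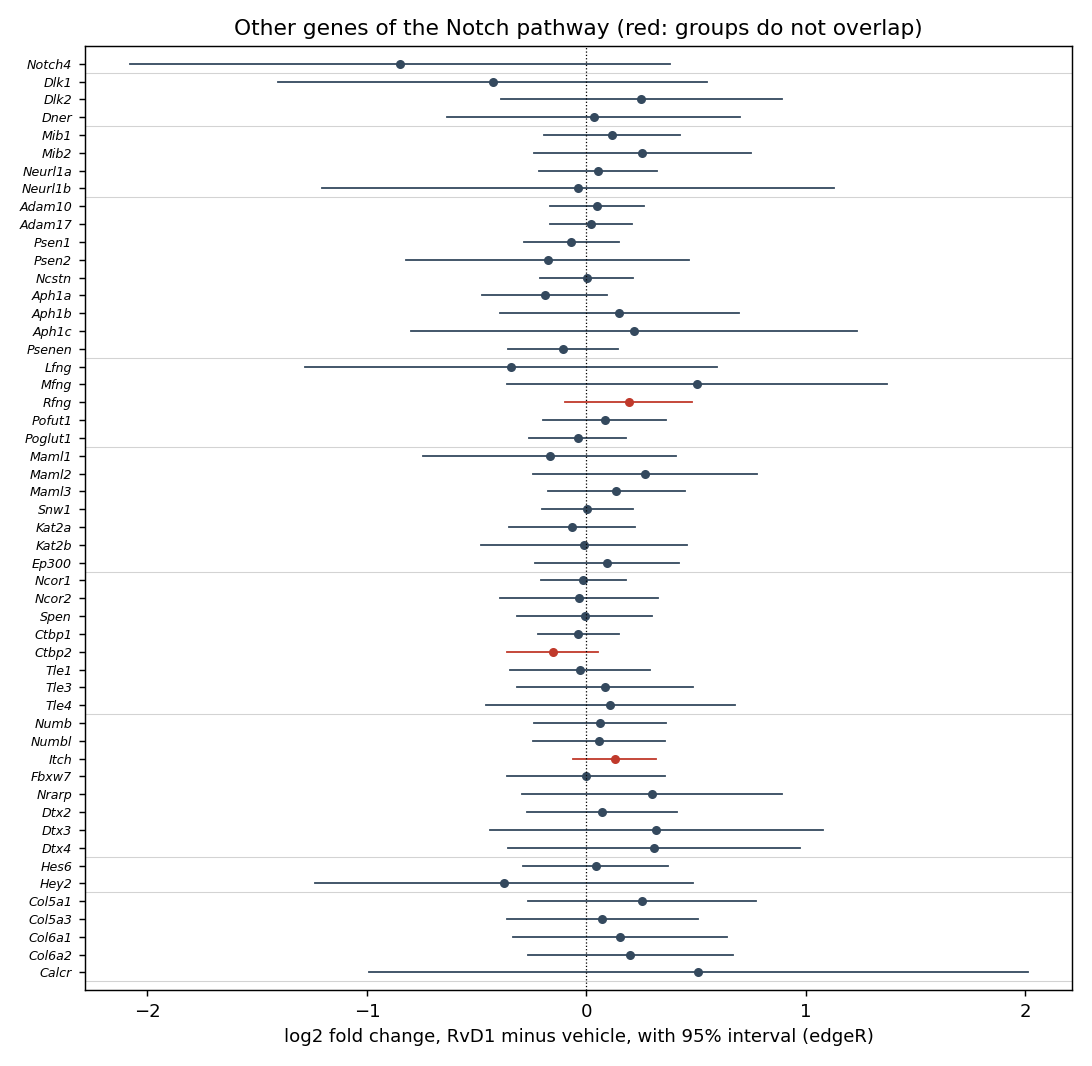
Log2 fold change, RvD1 minus vehicle, of the 52 further pathway genes tested (points) with 95% intervals (lines) from edgeR, grouped by role between grey lines. Rfng, Itch, and Ctbp2, whose groups do not overlap, are red; every interval includes 0, and that of Calcr is among the widest.

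The genes whose profile over the 6 libraries was nearest to each target gene were found by the root mean square difference of their centered log2 CPM, among 14493 genes. For Heyl they were Mrc2 (0.057), a collagen receptor, Plxdc2 (0.063), and Airn (0.069), an antisense RNA of Igf2r. For Hes1 they were Shroom1 (0.057), Pnrc1 (0.069), and Gm17029 (0.078), and for Hey1 they were Arid4b (0.037), Oser1 (0.038), and Mfsd11 (0.042). The likeness is in CPM: in TPM Shroom1 was at 0.44 to 0.89, and its highest library was RvD1 replicate 3, where Hes1 was near its lowest. The median difference over all genes was 0.51, 0.39, and 0.27 for Heyl, Hes1, and Hey1. With 6 libraries and so many genes, near profiles are a description of these libraries only.

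By position, all 10 genes are annotated as protein coding (GENCODE M21 on GRCm38). Heyl (ENSMUSG00000032744) lies on chromosome 4 from 123233556 to 123249875, Hes1 (ENSMUSG00000022528) on chromosome 16 from 30064384 to 30067796, and Dll1 (ENSMUSG00000014773) on chromosome 17 from 15367354 to 15376872. Exons of Notch1, Notch3, and Dll1 share bases with annotated genes on the other strand (0610009E02Rik and Gm13568, Gm17276, and A930024N18Rik), and those of Notch2 with Gm42820 on the same strand. The methods call the reads single-stranded, but no strand setting of the counting is given, so whether reads in the shared bases were assigned by strand is not known. Expected counts were whole in every library for Jag1, Jag2, Hes1, Hey1, and Heyl, and not whole for the other 5 genes, for which RSEM divided some reads among genes.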

How the data were processed

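RNA of MuSCs from 6 mice was sequenced as 76-bp single-ended reads, 1 library per mouse. The authors aligned reads to mm10 with STAR 2.5.0a and quantified genes with RSEM, and the annotation is not given in the sources used here. The expected counts deposited by the authors are RSEM's estimates, without scaling. In their TPM table the authors corrected for length and library total. FPKM values were not used. After 1 stray header line was removed, 49671 genes remained.

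Expected counts were rounded and tested over all genes with edgeR 4.0.16 (R 4.3.3; TMM, filterByExpr, quasi-likelihood test, two-sided, Benjamini-Hochberg threshold 0.05). Standard errors and 95% intervals came from the same fit. Log2 CPM used TMM and a prior count of 2, whereas the CPM printed for Notch2, Jag2, and Rbpj used library totals only. Levels of different genes were compared in TPM. The fits were tested on simulated data. The study's limma-voom procedure with surrogate variables was an alternative, besides DESeq2 1.42.0, limma-voom without surrogate variables (limma 3.58.1, sva 3.50.0), other scalings and filters, log2(TPM + 1) and log2(TPM + 0.1), a replicate block, and each library left out.

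The genes and lists were chosen with earlier results of these data known. The 10 members were all named. Other pathway genes were named if unadjusted p was under 0.05, if the groups did not overlap, or if they were the most abundant of their list, and for Hes1, Hey1, and Heyl the 3 nearest profiles were named. Calcr, Megf10, Mfng, Lfng, single markers, and the members of a list given for RvD1 replicate 1 were chosen after their values were seen.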

Additional observations from a re-analysis of the deposited data

How the results depend on the processing

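With 3 mice per group, direction was not stable for fold changes near 0. The larger ones of Heyl and Hes1 also changed sign when RvD1 replicate 1 was left out. No alternative gave any of the 10 genes or of the further pathway genes an adjusted p under 0.05. The 10 genes had 39 changes of sign among 170 alternative fold changes, 22 under 11 other settings and 17 with a library left out, and Notch2 kept its sign in all. After removal of the surrogate variable in limma-voom the log2 fold change fell from 0.36 to 0.11 for Heyl and from 0.26 to 0.13 for Hes1. Over all genes the number called, 0 in edgeR, was 12 with no filter on low counts and 0 to 1 with a library left out (1 without RvD1 replicate 3), and 0 with DESeq2 (474 genes at an unadjusted p under 0.05) and with limma-voom without (482) or after removal of 1 surrogate variable (2973). At an unadjusted p under 0.05 limma-voom after that removal found Dll4, Dlk2, Rfng, and Itch among the further pathway genes.

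The log2 fold change of Dll1 was −0.0023 with RLE size factors, −0.00059 with no filter on low counts, −0.0023 with DESeq2, −0.030 with limma-voom, and −0.027 with the replicate block. With library totals only it was 0.0069 for Notch1, 0.020 for Jag2, and 0.031 for Rbpj. For Notch3 it was −0.015 with limma-voom, −0.11 after removal of the surrogate variable, −0.015 with the replicate block, and −0.16, −0.17, and −0.16 with log2(TPM + 1), log2(TPM + 0.1), and log2(TPM + 1) without a filter. For Jag2 it was 0.067 after removal of the surrogate variable and 0.32, 0.35, and 0.32 on the same TPM scales, and for Rbpj 0.029 and 0.13, 0.13, and 0.13. The cause was not tested.

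With each library left out in turn, log2 fold changes ranged from −0.12 to 0.096 for Notch1, 0.039 to 0.30 for Notch2, −0.33 to 0.21 for Notch3, −0.12 to 0.20 for Dll1, −0.10 to 0.16 for Jag1, −0.12 to 0.15 for Jag2, −0.043 to 0.045 for Rbpj, −0.080 to 0.46 for Hes1, −0.19 to 0.053 for Hey1, and −0.16 to 0.60 for Heyl. RvD1 replicate 1 set an end of the range for Notch2, Notch3, Dll1, Jag2, Hes1, Hey1, and Heyl.

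Replicate numbers recur in both groups but are not stated to pair mice. After group means were removed, same-numbered libraries correlated across genes at 0.31, −0.00071, and 0.13. The same number was the best vehicle match for RvD1 replicates 1 and 3, whereas RvD1 replicate 2 correlated best with vehicle replicate 3 (0.17). Since no pairing is stated, the block was used only as an alternative. With the replicate block 0 of all genes and 0 of the 10 were called (smallest adjusted p 0.791 from edgeR), and 896 genes had an unadjusted p under 0.05.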

Other observations

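Several pathway genes that are well known elsewhere were barely present in these MuSCs. Hes5, the main Hes target gene of neural progenitors, had 0 to 1 expected counts per library, and Hes7, the oscillating repressor of somite formation, had 0 to 2. Dll3 had 0 to 4 counts and Dtx1 0 to 2. These counts are at or under a few reads, so no difference between groups can be read from them.

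Dll4 and Notch4, a ligand and a receptor of endothelial cells, were also low. RvD1 libraries held 7, 8, and 9 Dll4 counts, and vehicle libraries held 20, 8, and 21, too few for the filter on low counts. Without that filter its log2 fold change was −1.37 (unadjusted p = 0.0292, adjusted p = 0.885 from edgeR). Notch4 had 17, 11, and 11 counts with RvD1 and 10, 12, and 34 with vehicle. Endothelial markers did not share 1 pattern. Pecam1, like Dll4, was highest in vehicle replicates 1 and 3, at 3.14 and 3.61 TPM against 0.25 to 1.43 TPM. Cdh5, Kdr, Emcn, Cldn5, and Sox17 were likewise highest in these vehicle libraries. Tie1 and Egfl7 were highest in vehicle replicate 3, but vehicle replicate 1 was not next, and Erg had at most 3 counts in any library. By contrast, Tek (5.07 TPM) was highest in RvD1 replicate 1. Esam (7.54 TPM) and Vwf (1.44 TPM) were highest there in TPM, but their counts did not single it out. Esam had 173 counts there and 152 in vehicle replicate 3, a library of lower depth, and Vwf had 39 and 64. In TPM Notch4 was lowest in RvD1 replicate 2 (0.10) and next lowest in vehicle replicate 1 (0.15), and it was highest in vehicle replicate 3 (1.34). The counts did not bear out the order of the lower libraries. Vehicle replicate 1 had 10 counts at 0.15 TPM, and RvD1 replicate 3 had 11 counts at 0.69 TPM. The part of endothelial transcripts in these counts was not tested.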
